A study of Rattus norvegicus with 12 samples.

Results

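Amino acid transporter genes were taken from the RNA-seq table of rat renal cortex by their symbols, as genes of the solute carrier families Slc1, Slc3, Slc6, Slc7, Slc36, Slc38 and Slc43, leaving out Slc6a6 and Slc6a12. This rule took 43 of the 13151 genes in the table, and used no measured value. The genes were 5 of Slc1, 2 of Slc3, 9 of Slc6, 13 of Slc7, 2 of Slc36, 9 of Slc38 and 3 of Slc43. Some genes that the symbols take in do not carry amino acids. Slc6a4 is the serotonin transporter, Slc6a8 carries creatine, Slc43a3 carries purine bases, and Slc7a6os is a neighbour of Slc7a6 that encodes no transporter.

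The study compared male Zucker fatty (ZF) rats, which are obese because they lack a working leptin receptor, with Zucker lean (ZL) rats and with ZF rats given an SGLT2 inhibitor. ZL and ZF rats received no drug. The ZF-SGLT2i rats received canagliflozin, which blocks the main glucose transporter of the early proximal tubule, at 10 mg/kg/day in their food, starting at an age of 24 weeks and lasting 8 weeks. All rats were 32 weeks old when the cortex was taken, and each group had 4 rats, namely ZL rats 1 to 4, ZF rats 2 to 5, and ZF-SGLT2i rats 2, 3, 4 and 6. The methods describe lean rats only in a time course in which kidney biopsies were taken at earlier ages, and the study gives the sequenced ZF rats the name of the untreated arm of its drug experiment, for which no biopsy is described. If the sequenced rats came from these experiments, earlier biopsy and genotype cannot be told apart. The receptor defect is present in every cell of ZF and ZF-SGLT2i rats, and no lean rats on the drug are analysed here. The reads on genes numbered 8824980 to 12210257 per rat. The values are in CPM, the count of a gene scaled to the size of its library with a factor for each rat, and they come from whole cortex, so that fewer cells of a type and less RNA per cell cannot be told apart.

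The proximal tubule takes back nearly all amino acids that the glomerulus filters. Brush border transporters bring them into the cell with sodium or by exchange, and basolateral transporters pass them on to the blood. The early segments do most of this work for neutral amino acids, while the late segments carry high-affinity transporters that take up what is left. Several of these proteins work only in pairs, with a heavy chain of the Slc3 family that brings a light chain of the Slc7 family to the membrane, and inherited loss of such a pair causes cystinuria or lysinuric protein intolerance.

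Cortex genes were present in all rats, with Slc34a1, the phosphate transporter of the proximal tubule, between 3304 and 5478 CPM, and Nphs1, the nephrin gene of podocytes, between 132 and 219 CPM. The inner medulla gene Slc14a2, a urea transporter, was at or under 0.906 CPM in 10 of 12 rats and at 1.51 and 3.34 CPM in ZF-SGLT2i rats 3 and 6. A group difference was tested with limma on log2(CPM + 1) over the 11633 genes that had at least 1 CPM in at least 4 rats, with Benjamini-Hochberg adjustment over all of them, and genes with an adjusted p under 0.05 are given as called. Of the 43 transporter genes, 36 passed that filter. The others were Slc1a7, Slc38a4, Slc38a5, Slc38a8, Slc6a11, Slc7a10 and Slc7a11, none with more than 14 reads in any rat. Slc7a11 brings cystine into cells and is a known target of the amino acid response, and it had 0 to 4 reads per rat.

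Promoters are shown for the neighbours Slc6a18 and Slc6a19 on chromosome 1, because Slc6a18 was called lower in ZF rats and Slc6a19 was not. The bases lie before the transcription start that RefSeq gives on the rat assembly GRCr8, and run 5′ to 3′ on the strand of the gene. Capitals mark the half-site GTTAAT of HNF1, a transcription factor of the proximal tubule, found here on the opposite strand.
Slc6a18, chr1:31436403-31436576, plus strand: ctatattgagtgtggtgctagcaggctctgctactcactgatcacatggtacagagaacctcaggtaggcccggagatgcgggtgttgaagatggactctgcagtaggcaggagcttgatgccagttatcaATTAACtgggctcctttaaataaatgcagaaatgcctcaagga
Slc6a19, chr1:31414494-31414743, plus strand: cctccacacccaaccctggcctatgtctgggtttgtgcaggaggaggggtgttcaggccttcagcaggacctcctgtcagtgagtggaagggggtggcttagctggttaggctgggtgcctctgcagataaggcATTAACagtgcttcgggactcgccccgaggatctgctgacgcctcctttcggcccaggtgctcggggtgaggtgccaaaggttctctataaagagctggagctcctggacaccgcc

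The HNF1 half-site began 119 bases before the start of Slc6a18 and 116 bases before that of Slc6a19. The start used for Slc6a18 lies inside the annotated gene span, which covers the last 76 of the 250 bases, and these are not printed. For Slc6a19 the span covers none of the bases, so the distances are not measured from like points. On both strands of the 250 bases before each start, 8 motifs were searched in 33469 RefSeq promoters, of which 36 belonged to transporter genes. These 36 are not the same as the 36 tested genes. The untested Slc38a8 and Slc6a11 are among them, while Slc7a13 and Slc38a3 had no promoter sequence to search. The HNF1 half-site was in 6.45% of all promoters and in 3 of the 36 (Slc6a18, Slc6a19 and Slc7a12), and the whole HNF1 site, which contains it, was in none of the 36. The HNF4 core CAAAGTCCA was in 0.338% and the direct repeat of nuclear receptors, which overlaps it, in 0.457% of all promoters, and Slc3a1 was the transporter gene with each of them. For Slc3a1 the annotated gene span covers all 250 bases, so these matches lie inside the span and not before it. The element TGATGNAA of ATF4 and C/EBP was in 3.40% of all promoters and 3 of the 36, the E-box CACGTG in 5.59% and 5, the antioxidant element TGACNNNGC in 10.1% and 8, and the glucocorticoid element ACANNNTGT in 5.81% and none. A match describes the letters only, and is neither a bound site nor a cause.

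In ZF against ZL, 11 of the 36 tested transporter genes were called, which is 30.6%, beside 18.8% of all genes tested. The 8 that were lower were Slc3a1, Slc7a13, Slc6a18, Slc6a20, Slc38a3, Slc1a1, Slc6a13 and Slc36a1, and the background for lower calls was 10.6%. The 3 that were higher were Slc7a5, Slc6a9 and Slc43a3, beside a background of 8.19%. The rats of both groups stood fully apart for 8 of the 36 genes, that is 22.2% beside 19.0% of all genes. Of these 2 were higher (background 8.67%) and 6 lower (background 10.3%). The median log2 fold change over the tested transporter genes was -0.03, beside -0.01 over all genes, and 15 of the 36 estimates for transporter genes were above 0 and 21 below.

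**Figure D1:**
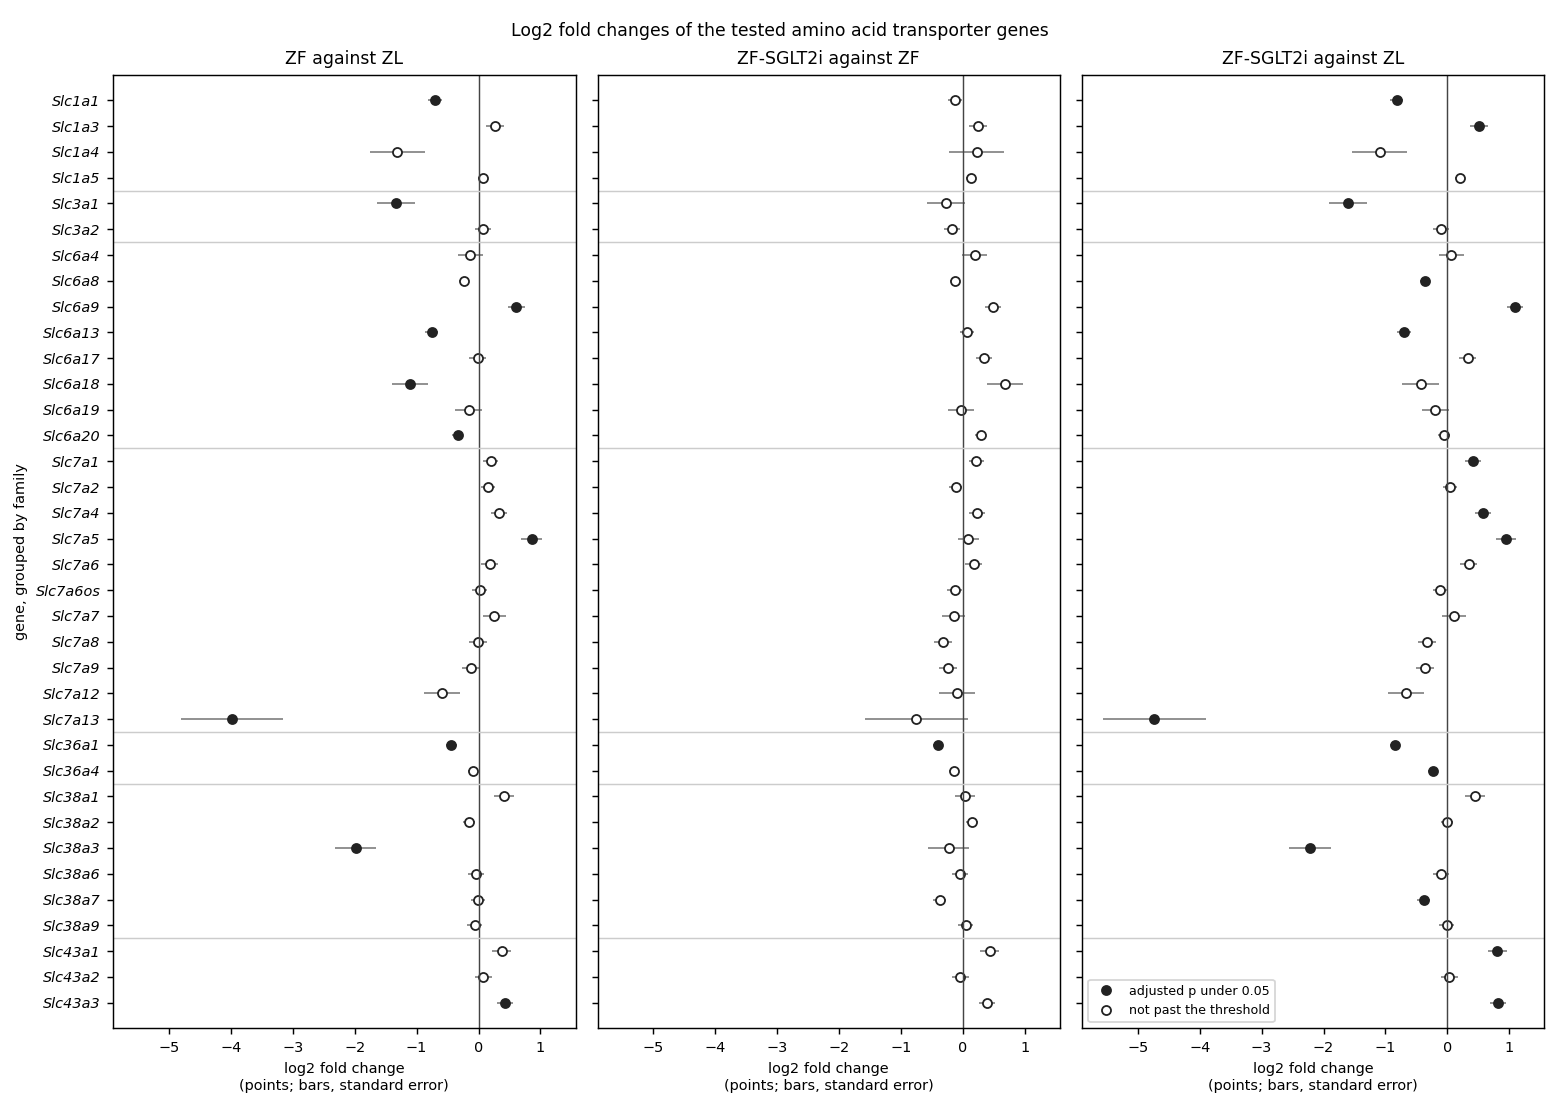
Log2 fold change (horizontal axis, on log2(CPM + 1)) of each of the 36 tested transporter genes, grouped by family (vertical axis), in the 3 comparisons. Points are limma estimates with bars of 1 standard error, and filled points have an adjusted p under 0.05. Slc7a13 lies farthest from 0 in both comparisons with ZL, and only Slc36a1 is filled in ZF-SGLT2i against ZF.

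Of the 8 lower genes, 6 were those of the late proximal list. All 6 transporter genes of the late proximal list fell in ZF against ZL, with a median log2 fold change of -1.22, while 0 of the 6 genes of the early proximal list were called and their median was 0.03. Before adjustment, 6 late and 0 early genes had a p under 0.05, beside 33.1% of all genes. Both lists were chosen with earlier results of these data known, so the split between them is a description and not a test. Leaving out ZL rats 1 and 4, which stood above the other lean rats for every late gene, left 2 of the 6 called (Slc38a3 and Slc1a1), as given below.

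Slc7a13 encodes a light chain that carries acidic amino acids and cystine across the late proximal brush border, and had the widest range among the tested transporter genes. Its values were 838, 140, 244 and 1896 CPM in ZL rats 1 to 4, then 148, 21.4, 36 and 6.12 CPM in ZF rats 2 to 5. In ZF-SGLT2i rats 2, 3, 4 and 6 they were 14.1, 19.3, 22.3 and 14.4 CPM. The lean rats spanned 13.6-fold among themselves and the ZF rats 24.2-fold, and ZF rat 2 was above ZL rat 2, so these groups overlapped. All ZF-SGLT2i rats were below all lean rats. The log2 fold change was -3.98 ± 0.83 (SE, limma, adjusted p = 0.00601) in ZF against ZL and -4.73 ± 0.83 (adjusted p = 0.00121) in ZF-SGLT2i against ZL. Without ZL rats 1 and 4 the first was -2.60 with an adjusted p of 0.059 and the second -3.35 with an adjusted p of 0.014.

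Slc3a1 encodes rBAT, the heavy chain that pairs with the products of Slc7a9 and Slc7a13, and its loss causes cystinuria. It was measured at 2382, 1121, 1557 and 3742 CPM in ZL rats 1 to 4. The ZF rats 2 to 5 had 1076, 661, 984 and 540 CPM, and the ZF-SGLT2i rats 2, 3, 4 and 6 had 659, 707, 718 and 530 CPM. Every lean rat was above every ZF and ZF-SGLT2i rat, although ZL rat 2 was close to ZF rat 2. The log2 fold change was -1.34 ± 0.31 (SE, limma, adjusted p = 0.00978) in ZF against ZL and -1.61 ± 0.31 (adjusted p = 0.00195) in ZF-SGLT2i against ZL. Without ZL rats 1 and 4 the call was lost in ZF against ZL (-0.75, adjusted p = 0.0704) and kept in ZF-SGLT2i against ZL (-1.02, adjusted p = 0.0137).

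The light chain Slc7a9, which forms the early-segment pair with rBAT, did not follow its heavy chain. It had 153, 153, 196 and 129 CPM in ZL, 130, 144, 187 and 120 CPM in ZF, and 147, 116, 126 and 99.5 CPM in ZF-SGLT2i rats. These groups overlapped in every comparison. Its log2 fold change was -0.12 ± 0.15 (SE, limma, adjusted p = 0.621) in ZF against ZL. ZL rat 4, the highest rat for Slc3a1, was the lowest lean rat for Slc7a9.

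Slc38a3 encodes the glutamine transporter SNAT3, which brings glutamine into proximal cells for ammonia production. It had 123, 50.8, 65.2 and 208 CPM in ZL rats 1 to 4, 35.9, 18.7, 19.9 and 22.7 CPM in ZF rats, and 18.7, 19.6, 19.9 and 21.5 CPM in ZF-SGLT2i rats. The lean rats were all above the other rats. For Slc38a3 the log2 fold change was -1.99 ± 0.33 (SE, limma, adjusted p = 0.00187) in ZF against ZL and -2.22 ± 0.33 (adjusted p = 0.000464) in ZF-SGLT2i against ZL. The call in ZF against ZL held without ZL rats 1 and 4, at -1.26 with an adjusted p of 0.00323.

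Slc1a1 encodes EAAT3, the brush border carrier of glutamate and aspartate, and varied far less among the lean rats. Its values were 173, 148, 171 and 186 CPM in ZL, 105, 103, 120 and 89.9 CPM in ZF, and 109, 95.4, 104 and 75.9 CPM in ZF-SGLT2i rats. The lean rats did not overlap with either other group. Slc1a1 had a log2 fold change of -0.70 ± 0.11 (SE, limma, adjusted p = 0.00143) in ZF against ZL and -0.82 ± 0.11 (adjusted p = 0.00023) in ZF-SGLT2i against ZL. Without ZL rats 1 and 4 the first was -0.61 with an adjusted p of 0.0191.

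Slc6a18 and Slc6a20 were lower in ZF than in ZL rats, and their means in treated rats were above those in ZF rats. Slc6a18 encodes B0AT3, a brush border carrier of glycine and alanine, and had 376, 184, 260 and 572 CPM in ZL, 217, 125, 164 and 105 CPM in ZF, and 239, 269, 265 and 181 CPM in ZF-SGLT2i rats. Slc6a18 had a log2 fold change of -1.11 ± 0.29 (SE, limma, adjusted p = 0.019) in ZF against ZL, and the groups overlapped through ZF rat 2. Slc6a20 encodes the proline carrier SIT1 and had 60, 53.1, 59.8 and 65.1 CPM in ZL, 47.0, 46.9, 50.1 and 43.4 CPM in ZF, and 67.0, 54.0, 60.1 and 49.0 CPM in ZF-SGLT2i rats. All lean rats were above all ZF rats for Slc6a20, with a log2 fold change of -0.34 ± 0.09 (SE, limma, adjusted p = 0.0212). In ZF-SGLT2i against ZF the estimates were 0.68 ± 0.29 (adjusted p = 0.25) for Slc6a18 and 0.28 ± 0.09 (adjusted p = 0.115) for Slc6a20, and neither passed the threshold. Without ZL rats 1 and 4 both calls in ZF against ZL were lost, with adjusted p = 0.166 for Slc6a18 and 0.161 for Slc6a20. The Slc6a18 call was also lost without ZL rat 1, ZF rat 3 or ZF rat 5 alone, and the Slc6a20 call without ZL rat 1, ZL rat 4 or ZF rat 5 alone.

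**Figure D2:**
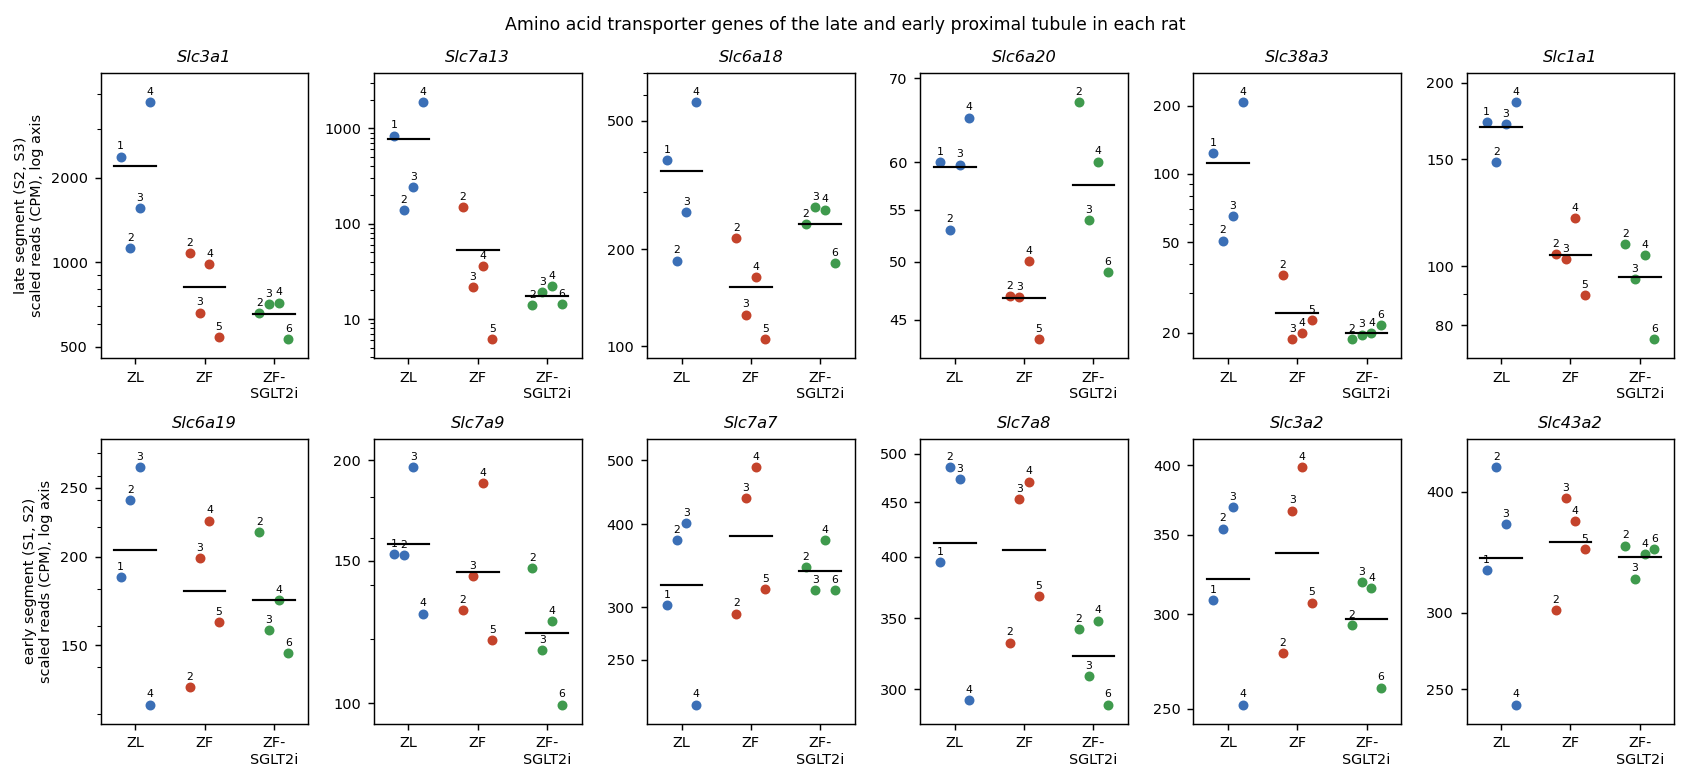
CPM (vertical axes, log scale, each gene with its own range) of the 6 late and the 6 early proximal transporter genes in the 4 rats of each group. Points are rats with their numbers and black lines are group means. Among lean rats, ZL rat 4 is highest for the late genes and lowest for the early genes, and the ZF and ZF-SGLT2i rats overlap for each gene.

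The early list held both brush border and basolateral genes. Slc6a19, which encodes B0AT1, the main brush border carrier of neutral amino acids, had 187, 240, 267 and 124 CPM in ZL, 131, 199, 225 and 162 CPM in ZF, and 217, 158, 174 and 146 CPM in ZF-SGLT2i rats. In ZF against ZL the log2 fold change of Slc6a19 was -0.16 ± 0.22 (SE, limma, adjusted p = 0.651). The groups overlapped. Its ratio to its neighbour varied among the lean rats, with a log2 ratio of Slc6a18 to Slc6a19 of 1.01, -0.38, -0.04 and 2.21 in ZL rats 1 to 4. These ratios follow changes between rats and do not compare levels of the genes, since CPM is not scaled to gene length.

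The basolateral exchangers showed no called difference either. Slc3a2, the heavy chain 4F2hc, had 309, 354, 369 and 252 CPM in ZL, 279, 367, 399 and 307 CPM in ZF, and 294, 319, 315 and 260 CPM in ZF-SGLT2i rats. Slc7a7, the light chain y+LAT1 whose loss causes lysinuric protein intolerance, averaged 324 ± 85.0 CPM (SD, n = 4) in ZL, 385 ± 93.3 CPM in ZF and 340 ± 28.6 CPM in ZF-SGLT2i rats. Slc7a8, the light chain LAT2 for neutral amino acids, averaged 412 ± 88.6, 406 ± 66.9 and 322 ± 27.5 CPM in the same order. Slc43a2, the uniporter LAT4 for branched-chain amino acids and phenylalanine, averaged 342 ± 77.0, 354 ± 39.7 and 343 ± 12.0 CPM. The log2 fold changes of these 4 genes in ZF against ZL ran from -0.01 to 0.26, with standard errors of 0.13 to 0.19. Under the drug all 6 early genes had negative estimates, with a median of -0.16, and the lowest was -0.32 ± 0.15 (SE, limma, adjusted p = 0.291) for Slc7a8.

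The lean rats had a shared order in the late genes. All 6 late genes ran from ZL rat 4 down through rats 1 and 3 to rat 2, an order held by 8 of the 36 tested transporter genes and by 8.27% of all genes tested. The other genes in this order were Slc1a4 and Slc7a12. All 6 early genes were lowest in ZL rat 4 among lean rats, which 29.6% of all genes were. Summed over the late list, ZL rats 1 to 4 had 3953, 1698, 2356 and 6670 CPM, ZF rats 1628, 976, 1375 and 807 CPM, and ZF-SGLT2i rats 1106, 1165, 1190 and 872 CPM. Summed over the early list, ZL rats had 1679, 2035, 2078 and 1253 CPM, ZF rats 1467, 1995, 2143 and 1624 CPM, and ZF-SGLT2i rats 1696, 1546, 1687 and 1464 CPM. The late sums of ZL rat 2 and ZF rat 2 were close, while the other ZF rats were lower. The part that the makeup of each piece of cortex had in these values was not tested.

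Reference genes of the same segments, outside amino acid transport, were measured beside them. Of 7 late proximal reference genes, 4 fell in ZF against ZL (median log2 fold change -1.26), beside 10.6% of all genes. These were Slc5a1, the high-affinity glucose transporter SGLT1, Slc22a7, Agt and Ggt1. Slc22a7 reached 1 CPM only in the 4 lean rats and ZF rat 2, so it passed the filter through the lean rats. Its call therefore says nothing of the segment. Without ZL rats 1 and 4 the calls of Agt and Ggt1 were lost, and Slc22a7 no longer passed the filter. Ggt1 also lost its call without ZF rat 3. Slc22a7 lost its call under 11 of 21 alternatives, among them leaving out ZL rat 1 or 4, any of ZF rats 3 to 5 or any of ZF-SGLT2i rats 2 to 4. The Slc5a1 call held under every alternative run. Agt encodes angiotensinogen and had 40.7, 13.8, 17.1 and 79.1 CPM in ZL, 16.7, 2.91, 7.26 and 1.42 CPM in ZF, and 4.86, 6.06, 5.84 and 3.68 CPM in ZF-SGLT2i rats. Agt had a log2 fold change of -2.33 ± 0.57 (SE, limma, adjusted p = 0.0132) in ZF against ZL. Of the 7 late reference genes, 6 had the lean order of rats 4, 1, 3 and 2. Of 8 early reference genes, 2 were called in ZF against ZL, beside 18.8% of all genes. Gatm, the first enzyme of creatine synthesis, was lower (-0.63, limma, adjusted p = 0.0462) and Slc2a2, the glucose transporter GLUT2, was higher (0.55, adjusted p = 0.0256). Gatm was no longer called under 12 of 23 alternatives, with an adjusted p of up to 0.27, among them leaving out any of 8 single rats (ZL rats 1 to 3, ZF rats 2, 3 and 5, and ZF-SGLT2i rats 2 and 3). Slc2a2 lost its call under 6 of 23, among them leaving out ZL rat 1, ZL rat 4, ZF rat 3 or ZF rat 4. In ZF-SGLT2i against ZL, 4 of 7 late and 3 of 8 early reference genes were lower, beside 15.0% of all genes. The late ones were those named above, and the early ones Gatm, Lrp2 (-0.75, limma, adjusted p = 0.00573) and Slc34a1 (-0.39, adjusted p = 0.0297). The call was lost under 10 of 23 alternatives for Slc34a1 and 1 of 23 for Lrp2. Without ZL rats 1 and 4 the calls of Agt and Ggt1 were lost here too. The drug target Slc5a2 was not called, at -0.19 ± 0.17 (SE, limma, adjusted p = 0.616) in ZF-SGLT2i against ZF. It had 365, 496, 550 and 292 CPM in ZL, 370, 504, 520 and 446 CPM in ZF, and 418, 359, 424 and 403 CPM in ZF-SGLT2i rats.

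Genes outside the segment lists changed as well, and 3 of them rose in ZF rats. Slc7a5 encodes LAT1, a light chain for large neutral amino acids that growing cells use. Its values were 7.81, 10.4, 7.48 and 8.22 CPM in ZL, 18.3, 14.6, 11.9 and 20.8 CPM in ZF, and 13.7, 18.5, 15.8 and 21.5 CPM in ZF-SGLT2i rats. Both ZF groups were above every lean rat and overlapped with each other. Slc7a5 had a log2 fold change of 0.86 ± 0.17 (SE, limma, adjusted p = 0.00428) in ZF against ZL and 0.95 ± 0.17 (adjusted p = 0.00129) in ZF-SGLT2i against ZL. Against untreated ZF rats, the treated rats gave 0.09 ± 0.17 (adjusted p = 0.837).

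Slc6a9, for the glycine transporter GLYT1, rose in ZF rats as well. It had 6.01, 7.37, 4.31 and 5.72 CPM in ZL, 9.20, 10.7, 8.80 and 8.74 CPM in ZF, and 11.8, 14.3, 14.8 and 13.2 CPM in ZF-SGLT2i rats. The 3 groups did not overlap, with treated rats highest. Its log2 change was 0.61 ± 0.13 (SE, limma, adjusted p = 0.00655) in ZF against ZL and 1.10 ± 0.13 (adjusted p = 8.62e-05) in ZF-SGLT2i against ZL. Against untreated ZF rats, the treated rats gave 0.49 ± 0.13 with an adjusted p of 0.0616. It was called in that comparison under 5 of 22 alternatives, the 2-group fit, array weights, DESeq2 and leaving out ZL rat 2 or ZL rat 3.

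The purine base carrier Slc43a3 rose in ZF rats too. Its values were 13.5, 14.6, 13.8 and 19.4 CPM in ZL, 23.8, 20.1, 21.5 and 18.1 CPM in ZF, and 27.5, 30.6, 22.0 and 30.7 CPM in ZF-SGLT2i rats. ZF rat 5 was under ZL rat 4, and all treated rats were above all lean rats. The log2 fold change was 0.43 ± 0.13 (SE, limma, adjusted p = 0.0323) in ZF against ZL and 0.82 ± 0.13 (adjusted p = 0.000607) in ZF-SGLT2i against ZL. The first call was lost when any of ZL rats 1, 2 or 3 or ZF rats 2, 3 or 4 was left out, with an adjusted p of up to 0.135 over the alternatives.

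Slc6a13 and Slc36a1 fell in ZF rats, and neither is in the segment lists. Slc6a13 encodes GAT2, which carries GABA, taurine and betaine across basolateral membranes, and had 51.8, 33.8, 47.6 and 47.6 CPM in ZL, 25.1, 24.0, 29.6 and 25.5 CPM in ZF, and 27.7, 28.6, 26.9 and 25.5 CPM in ZF-SGLT2i rats. All lean rats were above all others, and the log2 fold change was -0.76 ± 0.11 (SE, limma, adjusted p = 0.000818) in ZF against ZL and -0.70 ± 0.11 (adjusted p = 0.000666) in ZF-SGLT2i against ZL.

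Slc36a1, the proton-coupled carrier PAT1 of small neutral amino acids, found on lysosomes, was the only transporter gene called in ZF-SGLT2i against ZF. It had 26.5, 32.2, 28.1 and 30.6 CPM in ZL, 19.3, 21.4, 22.7 and 21.9 CPM in ZF, and 17.4, 17.0, 14.2 and 15.0 CPM in ZF-SGLT2i rats. The 3 groups did not overlap, and treated rats were lowest. The log2 fold change was -0.44 ± 0.09 (SE, limma, adjusted p = 0.00458) in ZF against ZL, -0.40 ± 0.09 (adjusted p = 0.0247) in ZF-SGLT2i against ZF and -0.84 ± 0.09 (adjusted p = 2.93e-05) in ZF-SGLT2i against ZL. The call in ZF-SGLT2i against ZF was lost when ZF rat 3, ZF rat 4, ZF-SGLT2i rat 4 or ZF-SGLT2i rat 6 was left out, with log2 fold changes of -0.35 to -0.40.

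**Figure D3:**
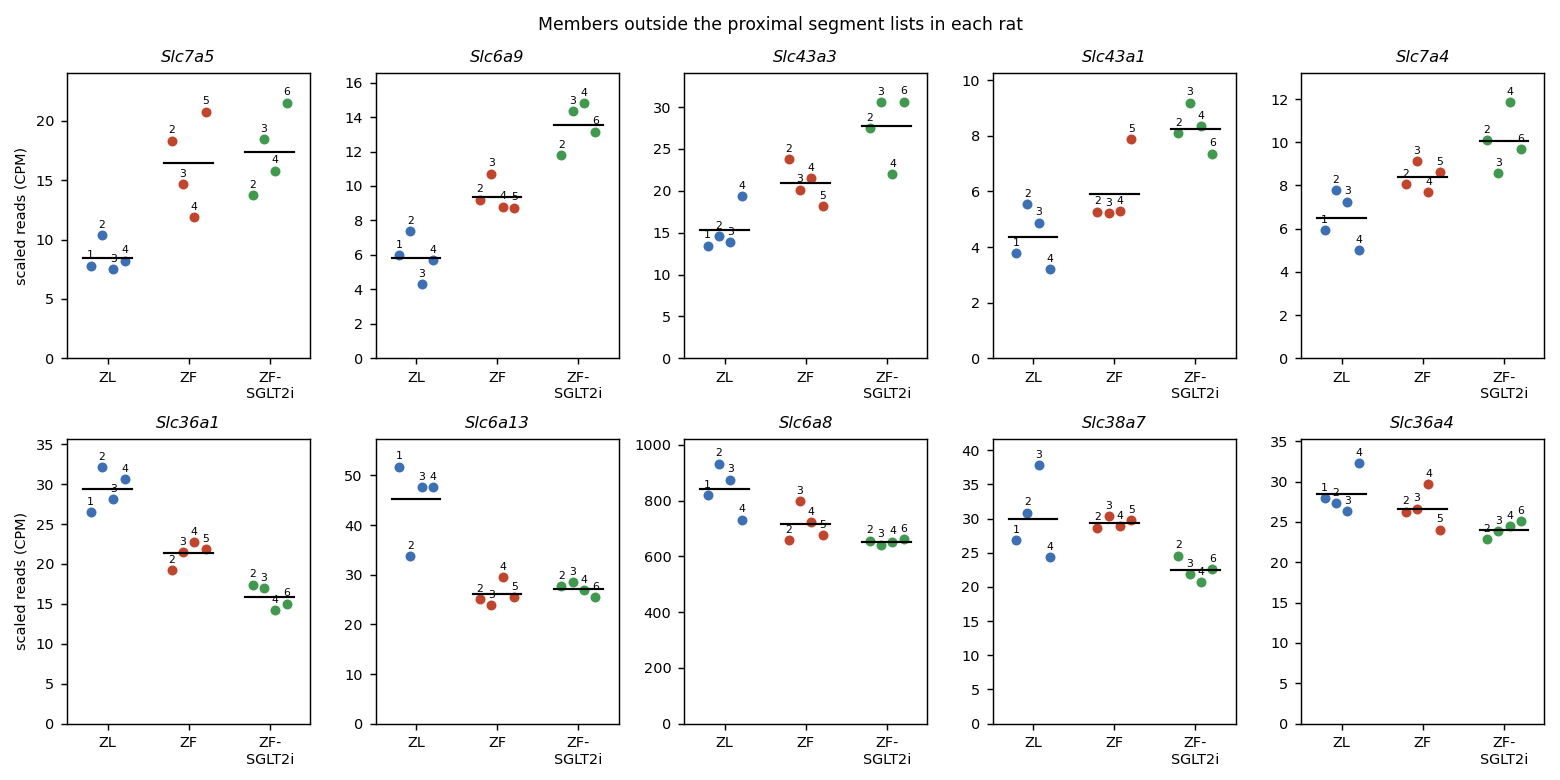
CPM (vertical axes, from 0) of 10 transporter genes outside the segment lists in the 4 rats of each group. Points are rats with their numbers and black lines are group means. Slc6a9 and Slc36a1 are the genes here whose 3 groups do not overlap, with treated rats highest for Slc6a9 and lowest for Slc36a1.

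The drug comparison gave few calls in these families. In ZF-SGLT2i against ZF, 1 of the 36 tested transporter genes was called (2.78%), beside 3.15% of all genes, and by direction 1.39% of all genes were called higher and 1.75% lower. The rats of both groups stood fully apart for 3 genes (8.33%), beside 11.2% of all genes. These were Slc36a1 and Slc38a7, lower in treated rats (background 5.63%), and Slc6a9, higher (5.54%). Slc38a7, a lysosomal glutamine carrier, had 28.7, 30.4, 28.9 and 29.7 CPM in ZF and 24.6, 21.9, 20.7 and 22.6 CPM in ZF-SGLT2i rats, with a log2 fold change of -0.38 ± 0.11 (SE, limma, adjusted p = 0.0786). Slc38a7 was called in this comparison under 6 of 23 alternatives, the 2-group fit, array weights, DESeq2 and leaving out ZL rat 3, ZL rat 4 or ZL rats 1 and 4. At an unadjusted p under 0.05 there were 9 of the 36 transporter genes, beside 17.2% of all genes. The median log2 fold change was 0.00 over the transporter genes and 0.01 over all genes. None of the late genes was called, and their median was -0.18.

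In ZF-SGLT2i against ZL, 16 of the 36 tested transporter genes were called (44.4%), beside 27.4% of all genes (12.4% higher and 15.0% lower). At an unadjusted p under 0.05 there were 24, beside 39.3% of all genes. The rats of both groups stood fully apart for 17 genes (47.2%), beside 28.0%, with 9 higher (background 12.9%) and 8 lower (background 15.1%). This comparison shares its lean rats with ZF against ZL, so that the 2 are not independent. The 7 higher genes were Slc7a5, Slc6a9, Slc43a3, Slc43a1, Slc7a4, Slc1a3 and Slc7a1, and the 9 lower genes were Slc3a1, Slc7a13, Slc38a3, Slc1a1, Slc6a13, Slc36a1, Slc6a8, Slc38a7 and Slc36a4. Of the late list, 4 of 6 were lower, with a median log2 fold change of -1.22. Slc6a18 was not called, at -0.43 ± 0.29 (SE, limma, adjusted p = 0.296), nor was Slc6a20, at -0.05 ± 0.09 (adjusted p = 0.7). Of the early list 0 of 6 were called, and the median was -0.15.

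Some genes were called in this comparison alone. Slc43a1, the uniporter LAT3 for branched-chain amino acids and phenylalanine, averaged 4.35 ± 1.05 CPM (SD, n = 4) in ZL, 5.91 ± 1.31 CPM in ZF and 8.25 ± 0.755 CPM in ZF-SGLT2i rats, and its log2 fold change was 0.81 ± 0.16 (SE, limma, adjusted p = 0.0021). Slc7a4, which resembles the cationic amino acid transporters, averaged 6.5, 8.38 and 10.1 CPM in the same order (log2 fold change 0.57, adjusted p = 0.00577). Slc7a1, the cationic amino acid transporter CAT1, averaged 19.0, 22.0 and 25.6 CPM (0.41, limma, adjusted p = 0.0251). Slc1a3, the glutamate transporter EAAT1, averaged 4.73, 5.95 and 7.16 CPM (0.51, limma, adjusted p = 0.021). For each of these 4 genes the ZF mean lay between the others, and none was called in ZF against ZL. Slc43a1 kept its call under every alternative run, and Slc7a4 lost its call under 2 of 22, the term for the rat number and leaving out ZL rats 1 and 4 (adjusted p of up to 0.083). In ZF against ZL, Slc7a4 was called under 2 of 22, array weights and leaving out ZL rat 2. The Slc7a1 call was lost under 6 of 23 alternatives, among them leaving out ZL rat 3 or ZF-SGLT2i rat 2, 3 or 6, and the Slc1a3 call under 5 of 22, among them leaving out ZL rat 3 or ZF-SGLT2i rat 2 or 6.

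The creatine transporter Slc6a8 averaged 840 ± 85.4 CPM (SD, n = 4) in ZL, 714 ± 62.3 CPM in ZF and 653 ± 8.25 CPM in ZF-SGLT2i rats. Slc6a8 had a log2 fold change of -0.36 ± 0.08 (SE, limma, adjusted p = 0.006) in ZF-SGLT2i against ZL and -0.23 ± 0.08 (adjusted p = 0.0639) in ZF against ZL. The first was no longer called with quantile normalization, at -0.11 with an adjusted p of 0.346, or with the term for the rat number, and the second was called under 4 of 23 alternatives, DESeq2 and leaving out ZL rat 4, ZF rat 3 or ZL rats 1 and 4. Slc38a7 averaged 30.0 CPM in ZL and 22.5 CPM in ZF-SGLT2i rats (-0.38, limma, adjusted p = 0.0178). Slc36a4, the high-affinity relative of Slc36a1, averaged 28.5 CPM in ZL and 24.1 CPM in ZF-SGLT2i rats (-0.23, limma, adjusted p = 0.0449). Slc36a4 lost its call under 16 of 23 alternatives.

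By family, the called genes of ZF against ZL were 4 of 8 tested in Slc6 (1 higher and 3 lower), 2 of 11 in Slc7 (1 higher and 1 lower), 1 of 4 in Slc1, 1 of 2 in Slc3, 1 of 2 in Slc36 and 1 of 6 in Slc38, all lower, and 1 of 3 in Slc43, higher, beside 18.8% of all genes. That share was 18.2% in Slc7 and 16.7% in Slc38. In ZF-SGLT2i against ZL the counts were 3 of 8 in Slc6, 4 of 11 in Slc7, 2 of 4 in Slc1, 1 of 2 in Slc3, 2 of 2 in Slc36, 2 of 6 in Slc38 and 2 of 3 in Slc43, beside 27.4% of all genes. In ZF against ZL, Slc6 and Slc7 held called genes of both directions, and in ZF-SGLT2i against ZL so did Slc1, Slc6 and Slc7.

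**Figure D4:**
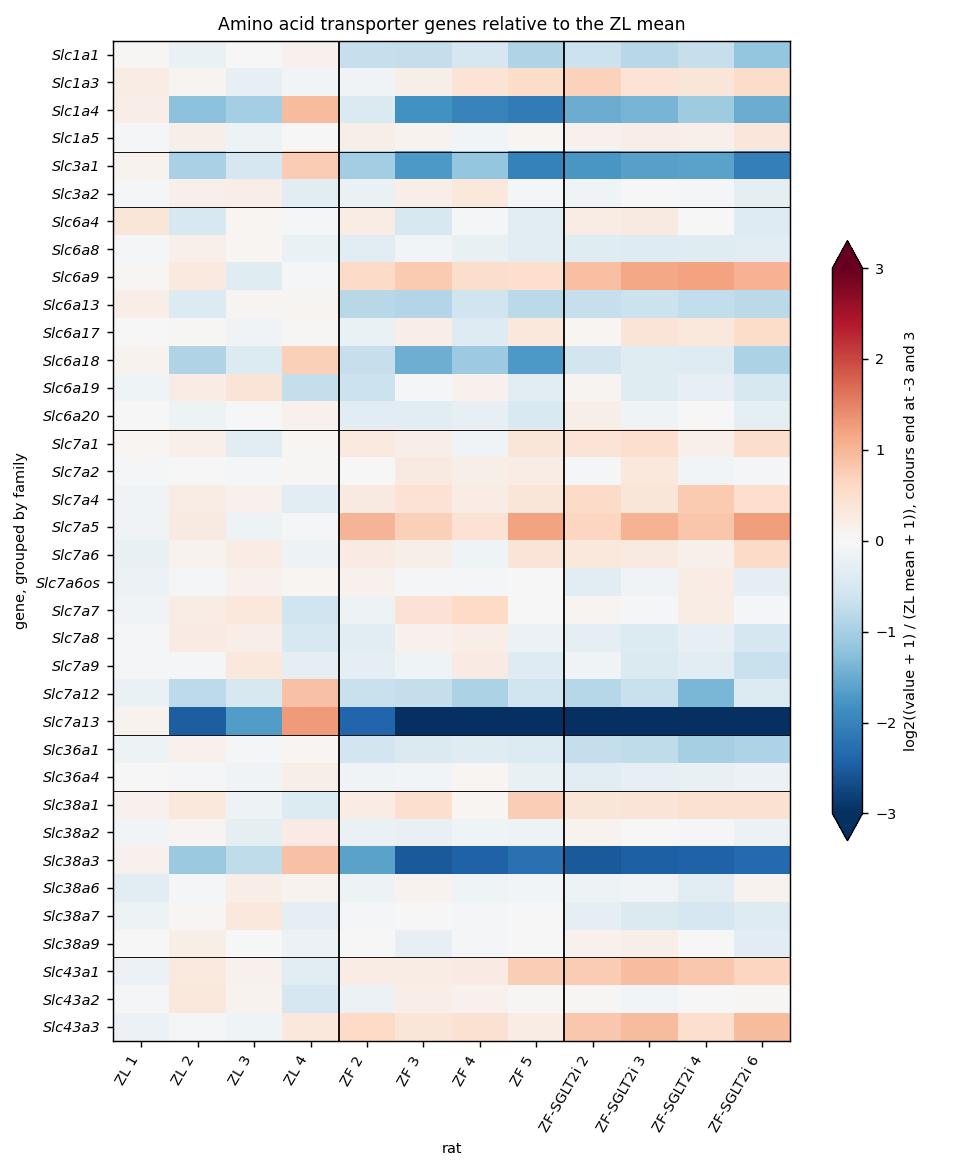
Log2 of (CPM + 1) relative to the ZL mean (colour, red higher and blue lower, ending at -3 and 3) for the 36 tested transporter genes (vertical axis, by family) in the 12 rats (horizontal axis). Slc3a1, Slc6a18, Slc7a13 and Slc38a3 differ among the lean rats, with ZL rat 4 high, and Slc7a5 and Slc6a9 are higher in all ZF and ZF-SGLT2i rats than the ZL mean.

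The remaining genes of the families were not called in any comparison at the settings used throughout, and some were called under an alternative. Slc38a2 encodes SNAT2, which cells raise when amino acids are short, and had 154, 174, 134 and 194 CPM in ZL, 142, 141, 151 and 148 CPM in ZF, and 178, 163, 161 and 145 CPM in ZF-SGLT2i rats. Slc38a2 had a log2 fold change of -0.16 ± 0.09 (SE, limma, adjusted p = 0.265) in ZF against ZL. Slc6a17, a vesicular carrier of neutral amino acids known from neurons, averaged 90.0 ± 4.23 CPM (SD, n = 4) in ZL, 90.8 ± 20.4 CPM in ZF and 114 ± 16.1 CPM in ZF-SGLT2i rats. Slc1a4, the neutral amino acid exchanger ASCT1, had 8.79, 2.60, 3.18 and 15.4 CPM in ZL and 5.27, 1.40, 1.11 and 0.984 CPM in ZF rats, with a log2 fold change of -1.31 ± 0.44 (SE, limma, adjusted p = 0.0541). Its lean and ZF groups overlapped through ZF rat 2. Slc1a4 was called in ZF against ZL under 8 of 22 alternatives, among them edgeR and DESeq2 on recovered reads and leaving out ZL rat 2, ZL rat 3 or ZF rat 2. Treated rats had 2.00, 2.22, 3.02 and 2.01 CPM of Slc1a4. In ZF-SGLT2i against ZL it gave -1.09 (limma, adjusted p = 0.0834) and was called under 6 of 22 alternatives. Slc38a1 was called in ZF against ZL under 2 of 23, leaving out ZL rat 2 or ZF rat 4. In ZF-SGLT2i against ZL it was called under 5 of 23, among them DESeq2 and leaving out ZL rat 2, ZF rat 4 or ZF rat 5. In the same comparison Slc6a17 was called under 3 of 23 alternatives, Slc7a6 under 2 of 22, Slc1a5 under 1 of 23 and Slc7a9 of the early list under 1 of 23. For the uncalled Slc1a5, Slc38a1, Slc38a6, Slc38a9, Slc6a4, Slc7a12, Slc7a2, Slc7a6 and Slc7a6os, the log2 fold changes in ZF against ZL lay between -0.58 and 0.41.

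Genes that work beside the transporters were mostly lower in ZF rats. Of 14 tested genes for partner proteins, peptide carriers and brush border peptidases, 11 fell in ZF against ZL (median log2 fold change -0.78), beside 10.6% of all genes. None was called in ZF-SGLT2i against ZF, beside 3.15% of all genes, and 10 fell in ZF-SGLT2i against ZL, beside 15.0%. Ggt1 is counted both here and among the late reference genes. Mme encodes neprilysin, a peptidase of the proximal brush border. It had 503.7, 256.2, 285.0 and 877.3 CPM in ZL, 211.8, 98.1, 122.2 and 93.0 CPM in ZF, and 99.9, 129.3, 121.3 and 118.6 CPM in ZF-SGLT2i rats. All lean rats were above all other rats, and the log2 fold change of Mme was -1.76 ± 0.33 (SE, limma, adjusted p = 0.00347) in ZF against ZL. Mep1b, for a subunit of the brush border peptidase meprin, had 149.1, 54.5, 90.6 and 277.2 CPM in ZL, 90.8, 10.5, 34.2 and 3.94 CPM in ZF, and 22.5, 44.8, 33.8 and 27.0 CPM in ZF-SGLT2i rats. ZF rat 2 lay above ZL rats 2 and 3, and the log2 fold change of Mep1b was -2.54 ± 0.71 (SE, limma, adjusted p = 0.0244) in ZF against ZL. Of the 14 genes, 10 had the lean order of rats 4, 1, 3 and 2. Without ZL rats 1 and 4 Mep1b lost its call and Mme kept its call. Leaving out ZL rat 1, ZL rat 4, ZF rat 3 or ZF rat 5 alone also ended the call of Mep1b.

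Most amino acid breakdown genes were lower in ZF rats too. Of 45 tested, 28 were lower and 1 was higher in ZF against ZL, with a median log2 fold change of -0.50. Of all genes, 10.6% were lower and 8.19% higher. Gatm is counted both here and among the early reference genes. Aadat, a transaminase of lysine and kynurenine breakdown, had 1383, 515, 743 and 2317 CPM in ZL, 373, 72.9, 206 and 36.8 CPM in ZF, and 134, 180, 188 and 122 CPM in ZF-SGLT2i rats. All lean rats were above all others, and the log2 fold change was -3.12 ± 0.59 (SE, limma, adjusted p = 0.00377) in ZF against ZL. Oat, which breaks down ornithine, and Cth, which makes cysteine, fell by 1.69 and by 1.47 on the log2 scale (limma, adjusted p = 0.00267 and 0.00412). Bhmt, which remethylates homocysteine, was the higher gene, at 0.41 ± 0.13 (adjusted p = 0.0391). Bhmt was not called under 12 of 23 alternatives, among them leaving out any one of ZL rats 1 to 4, ZF rats 4 and 5 or ZF-SGLT2i rats 2 and 3. Of these 45 genes, 14 had the lean order of rats 4, 1, 3 and 2. In ZF-SGLT2i against ZL, 26 of the 45 were lower and 3 higher, beside 15.0% and 12.4% of all genes.

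In ZF-SGLT2i against ZF, 4 of the 45 tested breakdown genes rose (8.89%) and none fell, beside 1.39% higher and 1.75% lower of all genes. Prodh, which starts the breakdown of proline, had 74.9, 70.5, 99.7 and 80.4 CPM in ZL, 53.7, 43.9, 32.6 and 58.2 CPM in ZF, and 135, 154, 85.1 and 167 CPM in ZF-SGLT2i rats. The treated rats were all above the ZF rats, with a log2 fold change of 1.49 ± 0.20 (SE, limma, adjusted p = 0.00131). Gpt2, a mitochondrial alanine transaminase, rose by 0.66 ± 0.14 (adjusted p = 0.0241), Bcat2, which transaminates branched-chain amino acids, by 0.59 ± 0.12 (adjusted p = 0.0168), and Dbt, a subunit of the branched-chain ketoacid dehydrogenase, by 0.27 ± 0.06 (adjusted p = 0.0234). Prodh, Bcat2 and Dbt had fallen in ZF against ZL, and these comparisons share the ZF rats. The earlier fall of Prodh was not called without ZL rats 1 and 4, at -0.85 with an adjusted p of 0.0586. In ZF-SGLT2i against ZF the call of Prodh held under every alternative run. Calls were lost with any of 6 single rats left out for Gpt2 (ZF rats 2 to 4 and ZF-SGLT2i rats 2, 3 and 6), any of 4 for Bcat2 (ZF rats 2 and 4 and ZF-SGLT2i rats 4 and 6) and any of 5 for Dbt (ZF rat 2 and each treated rat).

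**Figure D5:**
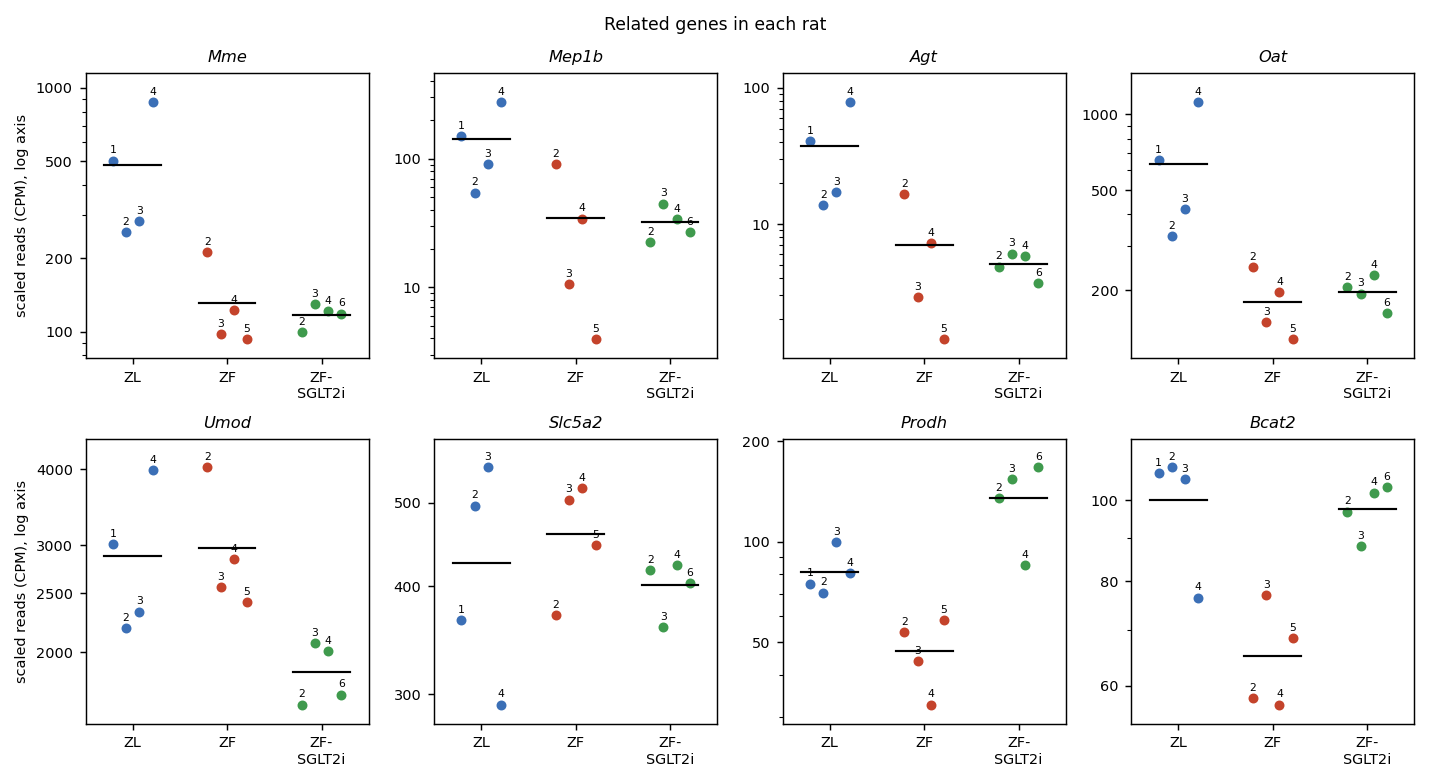
CPM (vertical axes, log scale, each gene with its own range) of 8 genes outside the transporter families in the 4 rats of each group. Points are rats with their numbers and black lines are group means. Mme, Mep1b, Agt and Oat are highest in ZL rat 4, and for Prodh and Bcat2 the ZF-SGLT2i rats lie above the ZF rats.

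The amino acid response, by which cells short of amino acids induce transporters and synthetic enzymes, gave a mixed picture. Of 18 tested genes, 5 were higher (Atf3, Nupr1, Eif4ebp1, Asns and Aldh18a1) and 2 lower (Psph and Psat1) in ZF against ZL, with a median log2 fold change of 0.12. Of all genes, 8.19% were higher and 10.6% lower. Atf3 and Nupr1, both stress-induced regulators of transcription, rose by 0.76 ± 0.25 and 0.69 ± 0.19 (SE, limma, adjusted p = 0.0452 and 0.0245). Atf3 lost its call under 12 of 22 alternatives, with an adjusted p of up to 0.137, among them leaving out any of ZL rats 1 to 3, ZF rats 2 to 4 or ZF-SGLT2i rats 3 and 4, and Nupr1 under 4 of 22, among them leaving out ZL rat 2, ZL rat 3 or ZF rat 2. Asns was not called under 11 of 23, among them leaving out ZL rat 2 or 3, ZF rat 2 or 3, or ZF-SGLT2i rat 2, 3 or 4. The serine synthesis genes Psph and Psat1 fell by 0.92 and by 0.66 on the log2 scale (limma, adjusted p = 0.00657 and 0.0137). Psat1 was not called without ZL rats 1 and 4, and neither gene was called with the term for the rat number (adjusted p = 0.0985 and 0.0759). In ZF-SGLT2i against ZF, 2 of the 18 genes were called, beside 3.15% of all genes. Cebpb rose by 0.75 ± 0.17 (SE, limma, adjusted p = 0.0282) and Aldh18a1, for proline synthesis, was lower, at -0.39 ± 0.09 (adjusted p = 0.0293). Each of these calls was lost under 7 of 23 alternatives, among them leaving out any of ZF rats 2 to 4 or ZF-SGLT2i rats 3 and 6, and also ZF-SGLT2i rat 2 for Cebpb and ZF-SGLT2i rat 4 for Aldh18a1. Of the 18 response genes, 6 were higher and 4 lower in ZF-SGLT2i against ZL, beside 12.4% and 15.0% of all genes. Slc7a1, Slc38a2 and Slc7a11 were the only transporters taken here as targets of this response. Slc7a1 and Slc38a2 gave no call in ZF against ZL or in ZF-SGLT2i against ZF. Slc7a1 was called higher in ZF-SGLT2i against ZL as given above, and Slc7a11 had too few reads to be tested. The other transporter genes, among them the called Slc7a5 and Slc6a9, were not sorted by whether they are targets.

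Some markers of other cells and states differed between the groups, and their counts stand beside 18.8% of all genes called in ZF against ZL, 3.15% in ZF-SGLT2i against ZF and 27.4% in ZF-SGLT2i against ZL. Of 10 injured tubule markers, 7 were higher in ZF against ZL, 1 was lower in ZF-SGLT2i against ZF, and 6 were higher and 1 lower in ZF-SGLT2i against ZL. Their summed level was 636, 587, 522 and 651 CPM in ZL, 2292, 976, 1743 and 843 CPM in ZF, and 1444, 1429, 1085 and 706 CPM in ZF-SGLT2i rats. Spp1, osteopontin, was the most abundant of them and had 167, 178, 166 and 166 CPM in ZL and 1473, 411, 1056 and 313 CPM in ZF rats. Havcr1, which encodes KIM-1, had a log2 fold change of 3.01 ± 0.57 (SE, limma, adjusted p = 0.00376). ZF rat 2 had the highest injury sum and also the highest ZF values of Slc3a1, Slc7a13, Slc38a3 and Slc6a18. Slc1a1 and Slc6a20, also of the late list, were highest in ZF rat 4, at 120 and 50.1 CPM. The part of tubular injury in the transporter values was not tested.

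Of 10 podocyte markers, 5 were higher in ZF against ZL, none was called in ZF-SGLT2i against ZF, and 5 were higher and 1 lower in ZF-SGLT2i against ZL, with Podxl the most abundant and Nphs1 at 0.47 ± 0.11 (SE, limma, adjusted p = 0.0093) in ZF against ZL. Of 8 collecting duct markers, 1 was higher in ZF against ZL, 1 in ZF-SGLT2i against ZF and 6 in ZF-SGLT2i against ZL, and the most abundant, Aqp2, had 447, 594, 391 and 340 CPM in ZL and 781, 842, 823 and 962 CPM in treated rats. Of 7 thick limb and distal markers, 1 (14.3%) was lower in ZF against ZL, none was called in ZF-SGLT2i against ZF, and 1 was higher and 2 lower in ZF-SGLT2i against ZL. Umod, the first and most abundant of them, was not called in ZF against ZL (0.05 ± 0.19, limma, adjusted p = 0.884). Umod shared the lean order of rats 4, 1, 3 and 2, with 3014, 2190, 2333 and 3985 CPM. Of 9 endothelial genes, 2 (22.2%) were higher in ZF against ZL, none was called in ZF-SGLT2i against ZF and 3 were higher in ZF-SGLT2i against ZL. Of 8 macrophage, 2 lymphocyte and 3 blood genes, none was called in any of the 3 comparisons. Of 2 inner medulla genes tested, Akr1b1 was higher in ZF against ZL (0.31 ± 0.09, limma, adjusted p = 0.0219), none was called in ZF-SGLT2i against ZF, and both were higher in ZF-SGLT2i against ZL. Aqp4, the more abundant, a water channel that collecting ducts also have, had 67.2, 84.7, 51.3 and 36.1 CPM in ZL, 45.8, 75.1, 49.9 and 71.3 CPM in ZF, and 88.9, 81.3, 101.3 and 121.6 CPM in ZF-SGLT2i rats, with a log2 fold change of 0.76 ± 0.23 (SE, limma, adjusted p = 0.0246) in ZF-SGLT2i against ZL. The part of medulla in the samples in the transporter values was not tested. Pecam1, Cd68 and Cd3e were the first written markers of endothelium, macrophages and lymphocytes, with means in ZL of 51.5, 4.23 and 0.346 CPM. Of 6 fibroblast genes, 2 were higher in ZF against ZL (Col1a1 and Pdgfrb), 4 fell in ZF-SGLT2i against ZF (Col1a2, Col3a1, Dcn and Pdgfrb) and 3 were lower in ZF-SGLT2i against ZL (Col3a1, Dcn and Pdgfra), and Pdgfra was the most abundant.

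Reads on the ribosomal RNA genes Rn28s and Rn45s, which remained after depletion, took 10.0%, 12.0%, 7.25% and 10.6% of the reads in ZL, 11.2%, 12.0%, 8.82% and 11.8% in ZF, and 12.0%, 14.3%, 11.5% and 15.2% in ZF-SGLT2i rats. The treated rats reached higher and overlapped with the other groups, and the part of this share in the transporter values was not tested.

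Clock genes differed too, with 11 of 13 called in ZF against ZL, 8 higher and 3 lower. The shares of all genes given above for the cell markers (18.8%, 3.15% and 27.4%) also stand beside the counts here. Arntl, the core activator of the clock, had 51.4, 47.9, 42.7 and 30.4 CPM in ZL and 3.64, 2.31, 7.01 and 1.42 CPM in ZF rats. None of the 13 was called in ZF-SGLT2i against ZF, and 9 were higher and 3 lower in ZF-SGLT2i against ZL. The hour of tissue collection is not given in the sources used here, and its part in the transporter values was not tested. Of 8 genes expressed in most cells, 3 were lower in ZF against ZL, with a median log2 fold change of -0.22, none was called in ZF-SGLT2i against ZF and 4 were lower in ZF-SGLT2i against ZL, and the most abundant, Gapdh, gave -0.08 ± 0.11 on the log2 scale (SE, limma, adjusted p = 0.658) for ZF against ZL.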

How the data were processed

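RNA of whole renal cortex from 12 rats, 4 per group, was sequenced by the authors from libraries depleted of ribosomal RNA that kept the strand. The submitters' processing notes name Trimmomatic 0.38, RSEM 1.3.0, Bowtie2, edgeR and the build rn6, and the annotation is not given in the sources used here. The authors deposited a table of signal values, normalized per rat. Every value (100%) was a whole multiple of the value of 1 read within a tolerance of 1e-06 reads, and the multiples matched CPM with edgeR's TMM factors, so read counts were recovered from them. Reads shared by similar genes could not be separated.

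Groups came from the labels. Values were fitted as log2(value + 1) with limma 3.58.1 (eBayes with trend, the 3 groups in the same fit) in R 4.3.3 for genes that reached a value of 1 in 4 or more rats, with two-sided p-values and Benjamini-Hochberg adjustment. The p-values measure the spread between rats. The fits were tested on simulated data. Alternatives were other pseudocounts, filters and scalings, a 2-group fit, a rat-number term, array weights, edgeR 4.0.16 and DESeq2 1.42.0 on the recovered reads, and leaving out rats.

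The genes named were the segment lists, every called transporter gene, those with a mean of at least 50, the heavy chains, the response targets, the drug target, the called genes of related lists with the largest changes (up to 3 in each direction), and the most abundant and first marker of each cell type. A gene that the rule takes from the related lists is not reported here. Dbt, Slc5a1, Slc1a4, Lrp2, Dcn, Col1a1, Col1a2, Col3a1 and Pdgfrb were named after their values were seen. The transporter genes and all lists were chosen with earlier results of these data known. Of the 43 symbols, 42 matched RefSeq symbols of GRCr8 and Slc6a20 matched a synonym; promoter sequences are from RefSeq, GRCr8.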

Additional observations from a re-analysis of the deposited data

Results flagged for a closer look

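A rat was set apart where its distance to the nearest rat of its group took most of the range of the group, by Dixon's test at the 95% level. This was so in 4 of 108 groups of 4 rats, and chance alone gives about 1 in 20, or 5.4. Slc1a4, the exchanger ASCT1, was at 5.27 CPM in ZF rat 2, while the other ZF rats had 0.984 to 1.40 CPM. Slc43a1, the uniporter LAT3, was at 7.87 CPM in ZF rat 5, and the other ZF rats had 5.21 to 5.30 CPM. Slc6a17 was at 83.7 CPM in ZL rat 3, under the 91.3 to 92.7 CPM of the other lean rats. Slc7a2, the cationic amino acid transporter CAT2, was at 6.26 CPM in ZF-SGLT2i rat 3, and the other treated rats had 4.53 to 4.76 CPM.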

How the results depend on the processing

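No called value changed sign under any alternative run. Of the transporter genes called, 5 of 11 in ZF against ZL (Slc1a1, Slc36a1, Slc38a3, Slc6a13 and Slc7a5), 0 of 1 in ZF-SGLT2i against ZF and 10 of 16 in ZF-SGLT2i against ZL kept their call under every alternative run. With 1 rat left out the counts ran from 8 (without ZL rat 1) to 14 (without ZL rat 2), from 0 (without ZF rat 3, ZF rat 4, ZF-SGLT2i rat 4 or ZF-SGLT2i rat 6) to 3 (without ZL rat 3), and from 13 (without ZF-SGLT2i rat 6) to 19 (without ZL rat 2), in the same order. In ZF-SGLT2i against ZF the count was 3 with only the 2 groups compared, 4 with array weights, 3 with DESeq2 and 2 without ZL rats 1 and 4, an alternative chosen after seeing the data, which gave 8 and 14 calls in the comparisons with ZL. The cause of these moves was not tested. A replicate block for the rat number gave 5, 0 and 10 calls. The numbers do not pair the rats, since deviations of rats with the same number correlated at -0.38 to 0.25 over 9 pairs, so the block says nothing of the size of an effect. On the recovered reads, edgeR called 1014 genes higher and 1163 lower in ZF against ZL, and 12, 1 and 17 transporter genes in the 3 comparisons. Quantile normalization moved the split of all calls in ZF against ZL from 953 higher and 1232 lower to 1103 higher and 942 lower. Single transporter genes were refitted where the adjusted p was under 0.1 in the comparison, and genes of the related lists (early and late references, partners and peptidases, breakdown, amino acid response) where they were called, criteria chosen after values were seen. Of these related genes, 16 of 51 called in ZF against ZL, 1 of 6 in ZF-SGLT2i against ZF and 25 of 54 in ZF-SGLT2i against ZL kept their call under every alternative run, and 19, 0 and 20 lost it without ZL rats 1 and 4. Cell type markers and clock genes were not refitted one by one. Depth limits the genes with few reads, such as Slc6a9 with 38 to 147 reads per rat.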
